A study of Mus musculus with 4 samples.

Results

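The BCL2 family of apoptosis regulators was followed in mouse T cell cultures with and without dimethyl fumarate (DMF), an electrophilic ester known to activate Nrf2, a factor that drives antioxidant genes. The 10 members were the rows of the deposited table of 54532 genes that carry the gene names Bcl2, Bcl2l1, Mcl1, Bcl2a1b, Bax, Bak1, Bcl2l11, Bbc3, Pmaip1 and Bid. Of these, 4 are pro-survival and 6 are pro-death genes. Naive CD4+ T cells from the spleen of wild-type mice spent 3 days in culture conditions meant to yield T follicular helper (Tfh) cells, which support antibody production by B cells. The DMF group holds 2 libraries of cultures that received DMF, at a dose that the labels do not give. The control group holds 2 libraries of cultures under the same Tfh conditions without DMF. Whether the replicates came from separate mice or cultures is not stated, so every p-value measures only how these samples varied, which may be technical variation. The series title names Nrf2, Tfh differentiation and chronic graft-versus-host disease, and the comparison asks how the family's transcripts differed between DMF and control cultures.

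BCL2 proteins decide whether the outer membrane of the mitochondrion is opened, the step that releases cytochrome c and sets off caspases. The effectors BAX and BAK form the pores, the pro-survival proteins hold them in check, and the BH3-only proteins sense stress or loss of growth signals and bind the pro-survival proteins, the effectors or both. In T cells, naive cells lean on BCL2, which interleukin 7 maintains, activated cells add BCL-XL and A1, and BIM removes cells at the end of a response.

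Reads worked out from the table totalled 17134385 and 17516953 in DMF replicates 1 and 2, and 17171199 and 15900118 in control replicates 1 and 2. Control replicate 2 stood apart: over the tested genes the SD of its log2 difference from control replicate 1 was 0.745, against 0.316 between the DMF libraries. Ribosomal protein genes took 6.48% and 6.49% of reads in the DMF libraries, 7.09% in control replicate 1 and 14.2% in control replicate 2. Results are therefore given against each control as well as against both. As a check of the label, Cd3e, a subunit of the T cell receptor complex, was at 47.3 and 46 FPKM in DMF and 48.2 and 57.3 FPKM in control libraries, and Cd4 at 103 and 100.3 FPKM against 128 and 105 FPKM. FPKM are fragments scaled to gene length and library size, so that levels of different genes can be compared. This holds less well in control replicate 2, which differed from control replicate 1 by gene length, as given further below. The 5 Tfh genes checked were all detected and lay in both directions. The Tfh factor Bcl6 was at 6.58 and 6.75 FPKM in DMF and 4.55 and 3.24 FPKM in control libraries, and Pdcd1 and Cxcr5 also lay above both controls. The cytokine gene Il21 was at 9.17 and 10.8 FPKM in DMF and 31.2 and 25.5 FPKM in control libraries, and Icos, a costimulatory receptor gene, at 35.9 and 36.8 FPKM against 50.2 and 49 FPKM, both below both controls.

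The family's clearest difference was at Bcl2, whose transcripts were lower in DMF cultures, at 0.364 and 0.523 times the levels of the 2 controls. Mcl1 was also lower than in both controls, at 0.763 and 0.714 times their levels. Bbc3, a pro-death gene, was higher than in control replicate 1 and slightly lower than in control replicate 2. The DMF mean of the remaining 7 members lay within 10% of control replicate 1. Bcl2l1, Bcl2a1b, Bax and Bak1 differed more from control replicate 2, and so, by less, did Bid and Bcl2l11. No member passed in limma across the 12166 genes tested (adjusted p under 0.05, Benjamini-Hochberg), where 0% of all genes passed. At an unadjusted p under 0.05 stood 1 member, Bcl2, and 1150 genes in all (9.45%), and limma's voom on the reads also called 0 genes. A lower level in such bulk cultures cannot be told apart from fewer cells of a type or less RNA per cell.

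**Figure D1:**
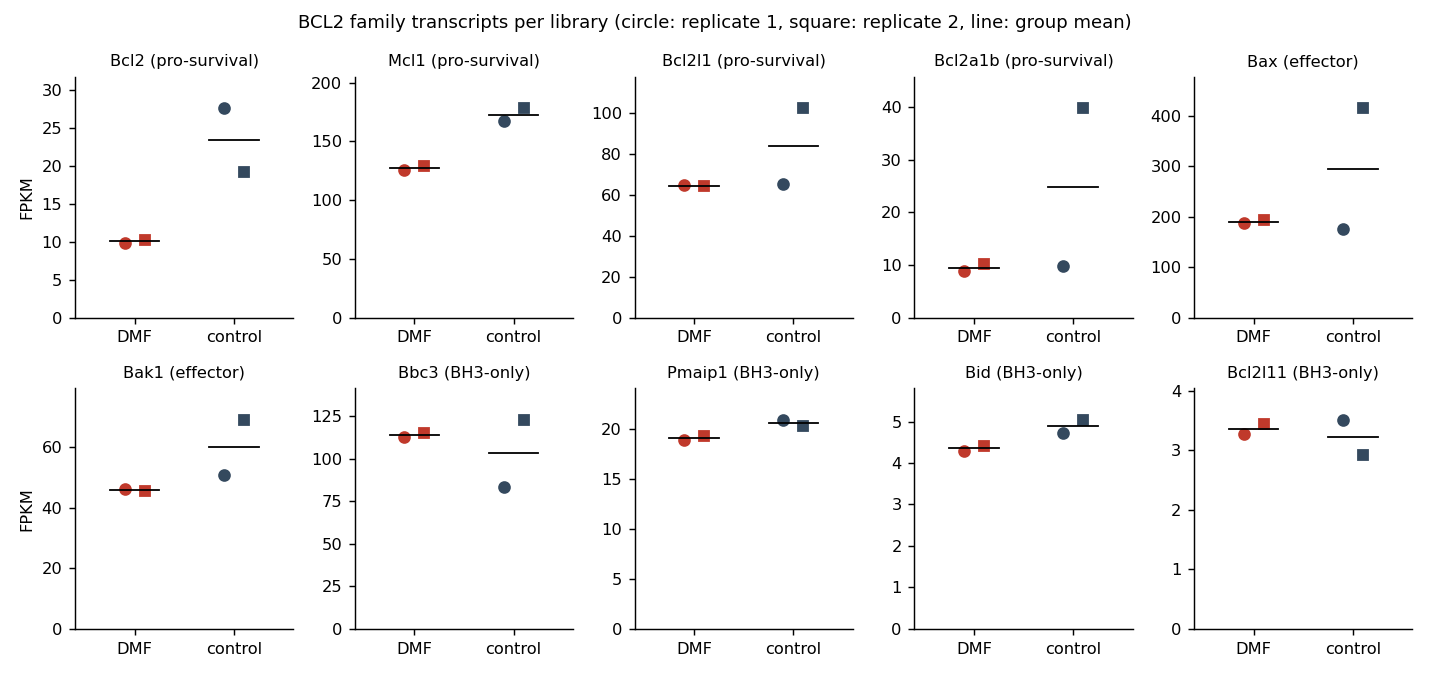
FPKM of the 10 members in each library on linear axes from 0, with DMF libraries in red, control libraries in dark blue, circles for replicate 1, squares for replicate 2 and lines at the group means. The DMF libraries lie close together in every panel, Bcl2 and Mcl1 lie below both controls, and control replicate 2 lies far above the other libraries for Bax and Bcl2a1b.

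Bcl2 (ENSMUSG00000057329, GRCm38 chromosome 1, 106538178 to 106714274, minus strand) encodes the founding pro-survival protein of the family. It was at 9.86 and 10.3 FPKM in DMF and at 27.6 and 19.2 FPKM in control libraries. Both DMF libraries lay well below both controls, and the DMF libraries were much closer to each other than the controls were. These values rest on 1652 and 1753 reads in DMF and 4484 and 2454 reads in control libraries. The group means were 10.1 ± 0.28 FPKM in DMF and 23.4 ± 5.93 FPKM in control cultures (SD, n = 2 each), a ratio of 0.429. The ratio was 0.364 against control replicate 1 and 0.523 against control replicate 2. On the log2(FPKM + 1) scale the difference was -1.12 ± 0.23 (SE; 95% interval -1.75 to -0.49), with a limma p of 0.00685 and an adjusted p of 0.31. Leaving out control replicate 2 gave an adjusted p of 0.0193, and leaving out control replicate 1 one of 0.00333, settings in which 8.28% and 61% of all genes passed. In both, the lone control is assumed to vary like the DMF pair.

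Mcl1 (ENSMUSG00000038612, GRCm38 chromosome 3, 95658788 to 95663176, plus strand) encodes a short-lived pro-survival protein on which lymphocytes depend at many stages. It was at 126 and 129 FPKM in DMF and at 167 and 178 FPKM in control libraries. The groups did not overlap, and the controls lay close together, at a ratio of 1.07. The means of 127 ± 2.06 and 172 ± 8.05 FPKM (DMF and control, SD, n = 2 each) gave a ratio of 0.738, and the log2 difference was -0.44 ± 0.23 (SE; 95% interval -1.04 to 0.17; limma adjusted p = 0.561). Under quantile normalization the log2 difference shrank to -0.0027 and the groups overlapped. Leaving out control replicate 2 gave a log2 difference of -0.39, and leaving out control replicate 1 one of -0.48.

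The upstream sequences of Bcl2 and Mcl1 are shown because these 2 members lay furthest below control replicate 1. They are the 250 bases before the RefSeq start site (GRCm38.p6, gene strand), read 5′ to 3′. Capitals mark the GC box GGGCGG, the core of the site that SP1 family factors bind, on either strand (CCGCCC on the other).
Bcl2, chr1:106714291-106714540, minus strand: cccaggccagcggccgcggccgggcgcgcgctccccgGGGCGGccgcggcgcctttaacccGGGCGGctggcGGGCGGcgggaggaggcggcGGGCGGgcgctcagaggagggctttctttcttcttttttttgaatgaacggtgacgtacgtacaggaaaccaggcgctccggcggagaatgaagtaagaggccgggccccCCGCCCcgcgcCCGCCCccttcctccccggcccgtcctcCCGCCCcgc
Mcl1, chr3:95658471-95658720, plus strand: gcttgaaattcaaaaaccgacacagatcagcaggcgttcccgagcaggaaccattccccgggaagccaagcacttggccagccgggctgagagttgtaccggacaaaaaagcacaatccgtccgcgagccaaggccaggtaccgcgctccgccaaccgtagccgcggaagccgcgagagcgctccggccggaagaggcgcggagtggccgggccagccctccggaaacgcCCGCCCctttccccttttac
The Bcl2 window holds 7 GC boxes and the Mcl1 window 1. Of the 10 members, 9 had a RefSeq promoter entry, and 7 of these held a GC box in at least 1 entry, a motif in 32.7% of the 32851 entries of all genes. The antioxidant response element core TGACNNNGC, to which Nrf2 binds, was found on either strand in 1 of the 9, Bcl2l1, and in 10.2% of all entries. The STAT site TTCNNNGAA was found in 0 of the 9 and in 7.02% of all entries, and the TATA box TATAAA in 0 of the 9 and in 12.4% of all entries. The motifs were searched without regard to overlap. A letter match is no binding site, and several members have more than 1 entry.

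Bcl2l1 (ENSMUSG00000007659, chromosome 2, 152780668 to 152831728, minus strand) encodes BCL-XL, the pro-survival protein that activated T cells add. It was at 64.8 and 64.0 FPKM in DMF and at 65.3 and 102 FPKM in control libraries. Both DMF libraries lay below both controls, but control replicate 1 was only just above them, at a ratio of 0.986. The means were 64.4 ± 0.553 FPKM in DMF and 83.6 ± 25.9 FPKM in control cultures (SD, n = 2 each), and the log2 difference was -0.34 ± 0.29 (SE; limma adjusted p = 0.595). Under quantile normalization it was -0.0062.

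Bcl2a1b (ENSMUSG00000089929, chromosome 9, 89199209 to 89207827, plus strand) is a copy of A1, a pro-survival gene that NF-kB induces. It was at 8.89 and 10.1 FPKM in DMF and at 9.81 and 39.7 FPKM in control libraries, from 133 and 154 reads in DMF and 142 and 452 reads in control libraries. Control replicate 2 alone was high, at 4.05 times control replicate 1, and the groups overlapped. The log2 difference was -1 ± 0.67 (SE; 95% interval -2.79 to 0.78; limma adjusted p = 0.561).

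Mouse A1 has near-identical copies, so reads of Bcl2a1b may have been shared with or given to Bcl2a1a and Bcl2a1d, and its values are uncertain. In GENCODE M21 the coding sequence of Bcl2a1b has 98.8% identity to that of Bcl2a1d and 97.9% to that of Bcl2a1a, over 516 bases. Of the windows of 50 bases in the Bcl2a1b transcript, 57.6% occur unchanged in a copy. The first 60 coding bases are shown because they hold 6 of the 12 coding sites at which the copies are not all alike. Capitals mark those 6 sites (GRCm38, gene strand).
Bcl2a1b, chr9:89199360-89199419, plus strand: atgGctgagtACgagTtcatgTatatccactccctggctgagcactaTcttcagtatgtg
Bcl2a1a, chr9:88957051-88957110, plus strand: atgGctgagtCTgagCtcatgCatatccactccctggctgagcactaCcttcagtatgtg
Bcl2a1d, chr9:88731660-88731719, minus strand: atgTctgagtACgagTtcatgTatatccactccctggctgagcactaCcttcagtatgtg
Most reads of the group were assigned to Bcl2a1d, at 73.3 and 74.9 FPKM in DMF and 74.3 and 146 FPKM in control libraries. Summed over the 3 copies the levels were 83.3 and 86.7 FPKM in DMF and 85.9 and 188 FPKM in control libraries. The sum kept the shape seen for Bcl2a1b, with control replicate 2 high and the other 3 libraries close together.

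Bax (ENSMUSG00000003873, chromosome 7, 45461697 to 45466898, minus strand) encodes an effector that moves from the cytosol to the mitochondrion and forms pores there. It had the highest mean FPKM of the family, at 187 and 193 FPKM in DMF and 176 and 414 FPKM in control libraries. The DMF libraries lay between the controls. The log2 difference of -0.51 ± 0.48 (SE; limma adjusted p = 0.62) turned to 0.11 without control replicate 2 and to 0.09 under quantile normalization. Bak1 (ENSMUSG00000057789, chromosome 17, 27019810 to 27029009, minus strand), the effector that resides in the mitochondrial membrane, was at 46.2 and 45.5 FPKM in DMF and 50.9 and 69.1 FPKM in control libraries. Both DMF libraries lay below both controls, at 0.9 times control replicate 1 and 0.664 times control replicate 2. Its log2 difference was -0.36 ± 0.23 (SE; limma adjusted p = 0.561).

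Bbc3 (ENSMUSG00000002083, chromosome 7, 16308393 to 16318205, plus strand) encodes PUMA, a BH3-only protein that p53 and other stress factors induce. It was at 113 and 115 FPKM in DMF and at 83.5 and 123 FPKM in control libraries. The DMF libraries lay between the controls, at 1.37 times control replicate 1 and 0.924 times control replicate 2. The log2 difference was 0.17 ± 0.28 (SE; limma adjusted p = 0.763). It was 0.45, with an adjusted p of 0.0268, without control replicate 2, and -0.11, with an adjusted p of 0.0832, without control replicate 1.

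Pmaip1 (ENSMUSG00000024521, chromosome 18, 66458604 to 66465550, plus strand) encodes NOXA, a BH3-only protein that binds mainly MCL1. It was at 18.9 and 19.3 FPKM in DMF and at 20.9 and 20.3 FPKM in control libraries. The DMF libraries lay just below both controls, at a ratio of 0.926 between the means (log2 difference -0.11 ± 0.17, SE; 95% interval -0.55 to 0.34; limma adjusted p = 0.748). Bid (ENSMUSG00000004446, chromosome 6, 120891930 to 120916853, minus strand), which caspase 8 cuts to link death receptors to the mitochondrion, was at 4.28 and 4.42 FPKM in DMF and 4.72 and 5.04 FPKM in control libraries. Its ratio was 0.892, with all 4 values close together (log2 difference -0.14 ± 0.17, SE; limma adjusted p = 0.692). Bcl2l11 (ENSMUSG00000027381, chromosome 2, 128126038 to 128162547, plus strand), which encodes BIM, was at 3.28 and 3.44 FPKM in DMF and 3.51 and 2.92 FPKM in control libraries. The groups overlapped, and the log2 difference was 0.05 ± 0.19 (SE; 95% interval -0.46 to 0.56; limma adjusted p = 0.899). The small differences of these 3 genes changed sign with the setting: Pmaip1 was at 0.06 and Bid at 0.0024 in limma's voom, and Bcl2l11 at -0.01 under quantile normalization and -0.05 without control replicate 2.

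By mean FPKM the order in DMF cultures was Bax, Mcl1, Bbc3, Bcl2l1, Bak1, Pmaip1, Bcl2, Bcl2a1b, Bid and Bcl2l11. The only neighbours in that order whose DMF libraries overlapped were Bcl2 and Bcl2a1b. In control cultures the order differed in that Bcl2a1b and Bcl2, at means of 24.8 and 23.4 FPKM, stood above Pmaip1 at 20.6 FPKM, and these 3 overlapped. Bax also overlapped there with Mcl1, Bbc3 with Bcl2l1, and Bcl2l1 with Bak1. All 10 members passed the filter of a mean of at least 1 FPKM.

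In all, 6 of the 10 members (Bcl2, Mcl1, Bcl2l1, Bak1, Pmaip1 and Bid) had both DMF values under both control values, and for 0 members both were above. Of all tested genes, 26.8% lay below both controls and 26.4% above both, 53.2% in all. Under quantile normalization and in limma's voom only 3 of the 10 members lay below both controls and 1, Bbc3, above both, against 24.1% and 29.7% of all genes under quantile normalization and 19.7% and 36% in voom, which shifts the median of all genes to 0.15. Under trimmed mean scaling, quantile normalization and voom and with the length trend removed, Bcl2 and Bak1 lay below both controls. So did Mcl1, except for an overlap under quantile normalization. Another pseudocount or filter, or a library left out, cannot undo such a position, so those settings were no check of it. With 2 libraries against 2, an exact permutation test of a single gene cannot give a two-sided p below 0.333. For 4 of these 6 members (Bcl2l1, Bak1, Pmaip1 and Bid) the DMF mean was at least 0.9 times control replicate 1. The median log2 fold change was -0.72 over the 4 pro-survival members and -0.12 over the 6 pro-death members, against -0.01 over all tested genes. Without control replicate 2 these medians were -0.216 and -0.0732, against 0.01 over all genes. In voom the pro-death median was 0.0296 and that of all genes 0.15. With the replicate number as a block, 4.54% of all genes passed and 1 member, Bcl2. Without DMF replicate 1 or 2, 0.0658% and 0.0493% of all genes passed and 0 members, with 65.2% of genes outside the range of the controls in either case and 32.4% and 32.2% above it. Without control replicate 1 or 2, 6 and 3 of the 10 members passed, where 61% and 8.28% of all genes did, with 92.6% and 83% of all genes outside the range of the lone control and 43.6% and 43.4% above it.

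**Figure D2:**
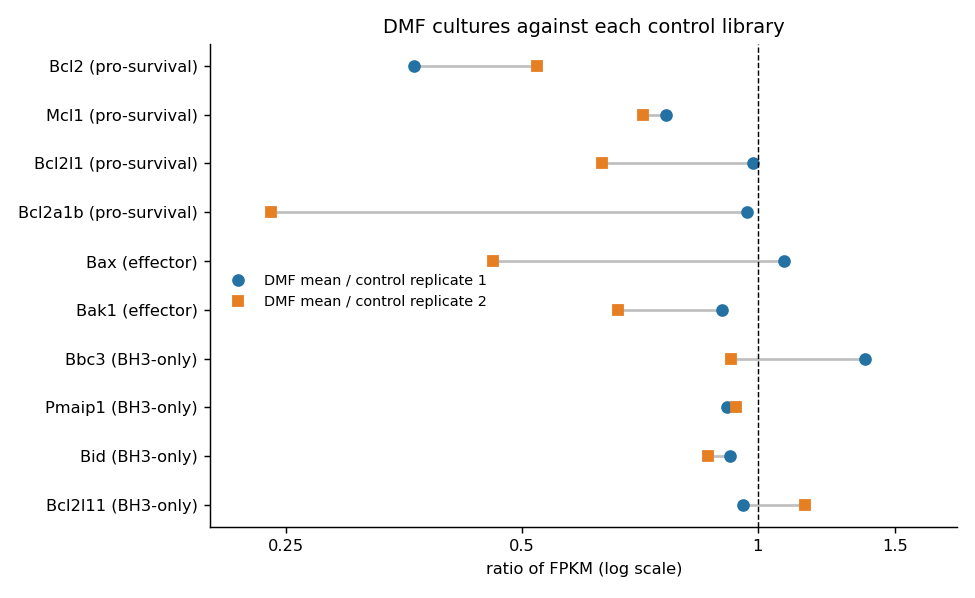
Ratio of the DMF mean to each control library, in FPKM on a log axis, for each member, with blue circles for control replicate 1 and orange squares for control replicate 2. Bcl2 and Mcl1 lie left of the dashed line at 1 by a wide margin against both controls, while Bcl2l1, Bcl2a1b, Bax and Bak1 lie far from 1 only against control replicate 2.

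Ratios between members of the same library do not change when a library is scaled by a single factor. They can change with a trend by gene length, given further below, and under quantile normalization. Bcl2 over Bcl2l11, the pro-survival transcript over that of its BH3-only partner BIM, was 3.01 and 2.98 in DMF and 7.86 and 6.58 in control libraries. Bcl2 over Bbc3 was 0.0873 and 0.0891 in DMF and 0.331 and 0.156 in control libraries. Both ratios were lower in each DMF library than in each control. Mcl1 over Pmaip1, whose proteins bind each other, was 6.66 and 6.68 in DMF and 7.99 and 8.77 in control libraries. Mcl1 over Bbc3 was 1.11 and 1.12 in DMF and 2 and 1.44 in control libraries.

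Of the 24 ratios of a pro-survival to a pro-death member, 12 were lower in each DMF library than in either control and 0 were higher. Under quantile normalization 10 were lower. The share among ratios of other gene pairs was not computed, so these counts cannot be read as particular to the family. Bcl2 gave 5 of its 6 ratios, Mcl1 4 of 6, Bcl2a1b 2 of 6 and Bcl2l1 1 of 6. These ratios share members and are not independent. Bcl2 over Bax was the exception for Bcl2, at 0.0528 and 0.0532 in DMF and 0.157 and 0.0465 in control libraries, where the high Bax value of control replicate 2 put it below the DMF libraries. The sum of the pro-survival FPKM over that of the pro-death FPKM was 0.562 and 0.56 in DMF and 0.793 and 0.535 in control libraries, so the summed ratio overlapped between the groups.

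**Figure D3:**
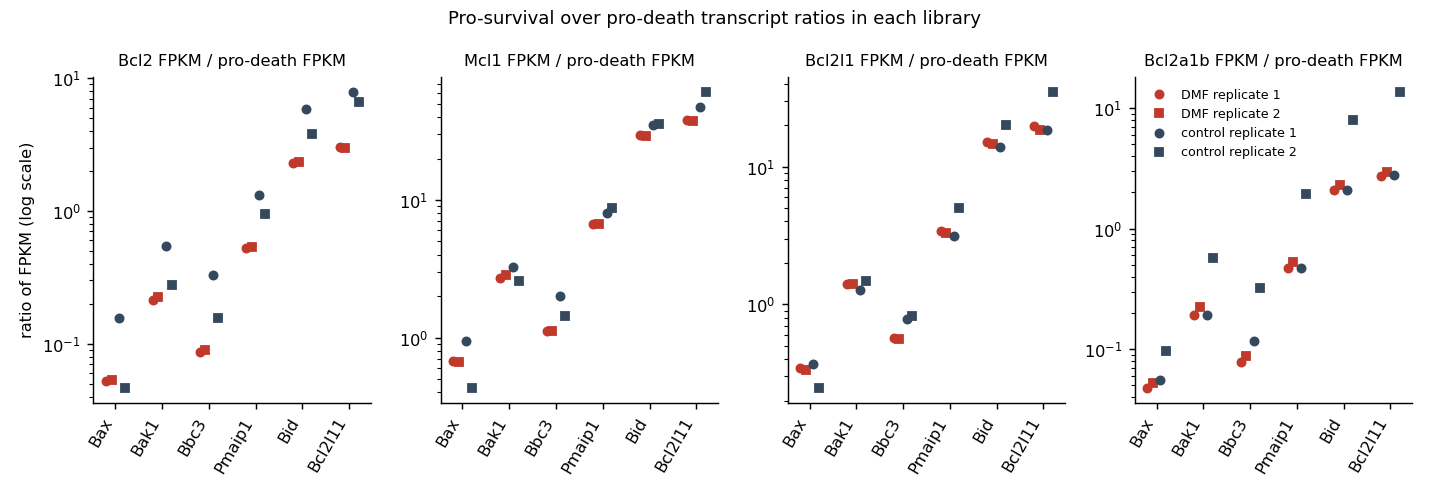
Ratio of the FPKM of each pro-survival member to that of each pro-death member in each library, on log axes, with DMF in red, control in dark blue, circles for replicate 1 and squares for replicate 2. For Bcl2 the DMF points lie below both controls for each denominator but Bax, while for Bcl2l1 they do so for Bbc3 alone.

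Gene length moved with the difference between the controls. In genes of 579 to 1444 bp, control replicate 2 was higher than control replicate 1 by a median of 0.72 on the log2(FPKM + 1) scale. The medians declined with length from there, and in genes of 8933 to 40491 bp the median was -0.6. The shortest genes, of 11 to 579 bp, did not follow this order, with a median of 0. The DMF mean showed medians of only -0.04 to 0.04 from control replicate 1 across the 10 length groups. Bcl2, with 9157 bp the longest member, differed between the controls by -0.5 (its length group -0.6), and between DMF and control replicate 1 by -1.37 (its length group 0.04). Bcl2a1b (817 bp), Bax (1576 bp) and Bcl2l1 (4586 bp) exceeded their length groups, with differences between the controls of 1.91, 1.23 and 0.63 against group medians of 0.72, 0.59 and -0.07.

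With the length trend removed from every library, Bcl2 was at 3.32 and 3.37 in DMF and at 4.73 and 4.68 in control libraries on the log2 scale. The controls then nearly coincided, and the difference was -1.36 ± 0.12 (SE; limma adjusted p = 0.0935). Mcl1 was at 7.04 and 7.08 in DMF and 7.42 and 7.33 in control libraries. Bbc3 then lay above both controls, as did 29.5% of all genes, at 6.97 and 7 in DMF and 6.48 and 6.61 in control libraries, with a difference of 0.44 ± 0.14 (SE; limma adjusted p = 0.327). On this scale 15 of the 24 ratios were lower in both DMF libraries, all 6 of Bcl2 among them, and 0 were higher. Here too the ratios share members, and the share among ratios of other gene pairs was not computed.

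**Figure D4:**
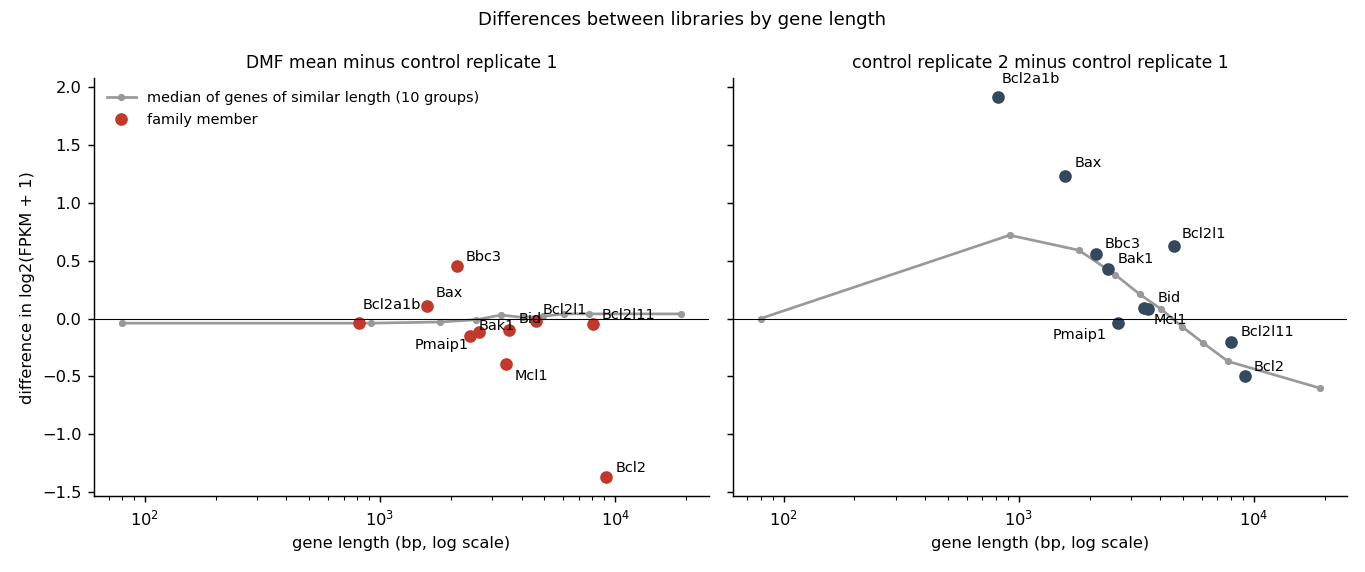
Difference in log2(FPKM + 1) from control replicate 1 against gene length on a log axis, for the DMF mean (left) and for control replicate 2 (right), with family members as labelled points and grey lines through the medians of 10 groups of genes of similar length. The grey line is flat for DMF, while for control replicate 2 it starts at 0 in the shortest genes, is highest at 0.72 in the next group and falls with length from there, and Bcl2 lies far from the line for DMF and near it for control replicate 2.

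No other gene of the family that was tested passed in limma. Bad, a BH3-only gene whose protein is held inactive by growth factor kinases, was at 8.63 and 7.44 FPKM in DMF and 11.6 and 23.1 FPKM in control libraries. Both DMF libraries lay below both controls (log2 difference -0.95 ± 0.36, SE; limma adjusted p = 0.532). Bmf, a BH3-only gene, did not reach the filter, with 33 and 65 reads in DMF and 138 and 89 reads in control libraries. Bcl2l2, which encodes pro-survival BCL-W, was at 6.28 and 6.25 FPKM in DMF and 9.14 and 6.36 FPKM in control libraries, and Bcl2a1a at 1.2 and 1.7 FPKM against 1.79 and 2.28 FPKM. Bik, another BH3-only gene, was at 0.824 and 1.08 FPKM in DMF and 1.1 and 2.26 FPKM in control libraries. Bok, a BAX relative, had 21 and 17 reads in DMF and 5 and 8 reads in control libraries, below the filter. Hrk had 5 and 1 reads in DMF and 2 and 0 in control libraries, and Bcl2l10 had 2 and 0 against 1 and 0, where 0 reads are compatible with up to 3.

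Among more distant relatives, the mitophagy receptors Bnip3 and Bnip3l were at 28.6 and 26.7 FPKM and at 38.1 and 37.5 FPKM in DMF libraries, against 30.5 and 33.1 FPKM and 44.7 and 44.7 FPKM in control libraries. Both mitophagy genes lay below both controls, with log2 differences of -0.19 and -0.24. Bcl2l13 and Bcl2l15 lay above both controls, with log2 differences of 0.21 and 0.2, and Bcl2l12 overlapped (-0.05). Bcl2l14 did not reach it, with 54 and 42 reads in DMF and 61 and 68 reads in control libraries. None of these passed in limma.

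Of 18 genes that act with or after the mitochondrial step (cytochrome c, APAF1, caspases, their inhibitors and the VDAC channels), 0 passed, 2 lay above and 1 below both controls, and the median log2 fold change was -0.08. These counts depended on the scaling, with 6 above and 2 below under quantile normalization, 6 and 1 in voom and 5 and 1 with the length trend removed. Of all genes, 26.4% lay above and 26.8% below both controls. These shares were 29.7% and 24.1% under quantile normalization and 36% and 19.7% in voom. With the length trend removed, 29.5% lay above. The list median was 0.07 in voom, where that of all genes was 0.15. Without control replicate 1 it was -0.12, and without control replicate 2 it was 0.05. Casp2, an initiator caspase linked to DNA damage, was at 10.1 and 9.56 FPKM in DMF and 8.35 and 6.88 FPKM in control libraries. In the other direction Birc2, which encodes the inhibitor of apoptosis protein cIAP1, was at 13.8 and 14.6 FPKM in DMF and 21.1 and 19 FPKM in control libraries (limma adjusted p = 0.523). Apaf1, the scaffold of the apoptosome, was at 23 and 20.6 FPKM in DMF and 20.8 and 10.8 FPKM in control libraries, with the groups overlapping.

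Of 10 death receptor pathway genes, 0 passed, 4 lay below and 2 above both controls, with a median log2 fold change of -0.28. Of all tested genes, 26.8% lay below and 26.4% above. Leaving out control replicate 1 gave a list median of -0.49 and leaving out control replicate 2 one of -0.15. It was also -0.15 in voom, where that of all genes was 0.15, and -0.13 with the length trend removed. Casp8, the caspase that cuts BID, was at 29.5 and 27.7 FPKM in DMF and 42.6 and 47.2 FPKM in control libraries (log2 difference -0.63 ± 0.18, SE; limma adjusted p = 0.459). The death receptor Fas was at 32.1 and 31.7 FPKM in DMF and 47.4 and 67.8 FPKM in control libraries (adjusted p = 0.476), and its ligand Fasl at 1.41 and 1.91 FPKM against 2.21 and 2.89 FPKM. Both DMF libraries lay below both controls for each of these 3 genes. Tnfrsf10b, the receptor for TRAIL, lay the other way, at 17.9 and 17.3 FPKM in DMF and 13.9 and 12.5 FPKM in control libraries.

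The p53 axis was read from 14 genes other than the members, of which 13 were tested. Of these, 0 passed, 6 lay above and 3 below both controls, with a median log2 fold change of 0.24. Of all tested genes, 26.4% lay above and 26.8% below, with a median of -0.01. The median was 0.49 under quantile normalization, where 9 lay above and 2 below, 0.42 in voom, 0.37 without control replicate 1 and 0.14 without control replicate 2. Sesn2, a stress gene that p53 and ATF4 induce, was at 76.6 and 75.3 FPKM in DMF and 56 and 52.3 FPKM in control libraries, and Zmat3, a p53 target, at 38.1 and 38.8 FPKM against 31.2 and 21.7 FPKM. The p53 target Cdkn1a, which encodes the cell cycle inhibitor p21, lay the other way, at 203 and 205 FPKM in DMF and 265 and 358 FPKM in control libraries, and so did Sesn1, at 7.99 and 8.96 FPKM against 12.1 and 10.7 FPKM. The limma adjusted p of these 4 genes lay between 0.543 and 0.561.

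Of 19 genes that act upstream of the members in T cells (cytokine receptors, STAT5, FOXO, NF-kB, ATF4 stress genes and MCL1 ubiquitin enzymes), 0 passed. In this list 6 lay above and 6 below both controls (8 and 3 under quantile normalization, 7 and 5 in voom). The shares of all genes were 26.4% above and 26.8% below (29.7% and 24.1% under quantile normalization, 36% and 19.7% in voom). Il7r, the receptor chain for interleukin 7, had 30 and 29 reads in DMF and 413 and 269 reads in control libraries, and was at 0.352 and 0.333 FPKM in DMF and 5 and 4.14 FPKM in control libraries. Il2rb, the receptor chain shared by interleukins 2 and 15, was at 39.3 and 37.6 FPKM in DMF and 84.5 and 80.4 FPKM in control libraries (limma adjusted p = 0.245). Both are receptors whose signals sustain Bcl2 in T cells, and whether they are tied to the Bcl2 level here was not tested. Trib3 and Chac1, genes of the ATF4 stress response, were at 13.2 and 13.6 FPKM and at 4.27 and 4.58 FPKM in DMF libraries, against 5.52 and 8.51 FPKM and 1.48 and 2.06 FPKM in control libraries.

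**Figure D5:**
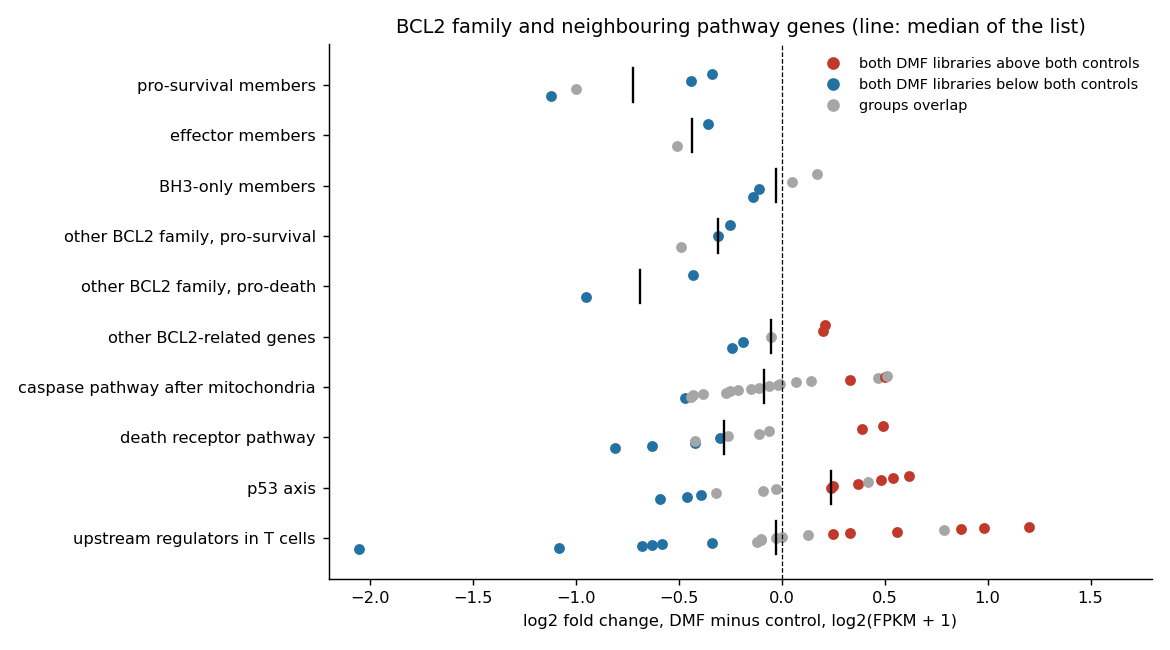
Log2 fold change (DMF minus control, log2(FPKM + 1)) of each tested gene by list, red where both DMF libraries lay above both controls, blue where both lay below and grey where the groups overlapped, with a line at each list's median. Pro-survival members sit furthest left among the 3 member groups, at a median of -0.72, and the p53 axis sits right of 0, at 0.24. The 2 tested genes of the other pro-death family list have a median of -0.69. Without control replicate 1, which is not drawn, the effector median was -0.85 and the pro-survival median -0.76.

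Markers of other cell types differed between the libraries, where 26.4% of all tested genes lay above both controls and 26.8% below. The marker counts include genes below the filter and near ties, such as Cd4 at 103 FPKM in DMF replicate 1 and 105 FPKM in control replicate 2. Of 9 B cell markers, 7 were higher in each DMF library than in either control and 1 was lower. Their summed level was 90.6 and 89.5 FPKM in DMF and 83.6 and 123 FPKM in control libraries, most of it Ighm. Of 7 CD8 T and NK cell markers, 4 lay below both controls and 2 (Ncr1 and Klrb1c) were at 0 in all 4 libraries, with sums of 3.02 and 2.92 FPKM in DMF and 12.9 and 21.3 FPKM in control libraries. Of 6 T cell markers, 5 lay below both controls, with sums of 1036 and 1048 FPKM in DMF and 1146 and 1602 FPKM in control libraries. Of 9 myeloid markers, 4 lay below and 1 above, with sums of at most 9.5 FPKM in any library. All these cell types express BCL2 family genes, and the part of these shifts in the members' values was not tested.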

How the data were processed

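The authors deposited 1 table of FPKM per gene for the 4 libraries, which per the file headers also holds each gene's name, position and length. Per the labels' protocols, total RNA was sequenced on an Illumina HiSeq2000. edgeR and the build mm8 are listed in the submitters' processing notes with no role. Aligner, counting program and use of strand: not given in the sources used here. Of the 54409 gene IDs found in GENCODE M21 (GRCm38), 98.26% match the table in chromosome and both ends, and 9 of the 10 members do (Pmaip1 differs at both ends), so coordinates are given as GRCm38.

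FPKM times gene length gave whole multiples of 1 step for 100% of values in each library (tolerance 0.01), so reads per gene were worked out. A count of 0 allows up to 3 reads, for counting error only. The deposited scaling implies library sizes of 1.07, 1.07, 1.03 and 0.876 times the read totals in DMF replicates 1 and 2 and control replicates 1 and 2. limma 3.58.1 in R 4.3.3 (lmFit, eBayes with trend) was fitted to log2(FPKM + 1), two-sided, DMF minus control, over 12166 genes (mean FPKM at least 1), with Benjamini-Hochberg adjustment over all of them. Fold changes on this scale understate those of low genes.

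The members and all gene lists were chosen with earlier results of these data known. Named are all members, all other BCL2 family genes, and of each further list the 4 tested genes with the smallest p. Some genes that this rule takes are not reported here. Where a symbol occurs more than once (Ddit3), the longest gene was taken. Sequences come from RefSeq promoter entries (GRCm38.p6) and GENCODE M21 transcripts, aligned with Biopython 1.88. Alternatives were a pseudocount of 0.1, no filter, a mean FPKM of at least 5, trimmed mean of log ratios (with 30% of the ratios and 5% of the levels trimmed off either end) and quantile scaling, voom on the reads, removal of a gene length trend (loess, span 0.3), a replicate block, and leaving out each library in turn. The ratios of members and their alternatives were added after the data were seen.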

Additional observations from a re-analysis of the deposited data

How the results depend on the processing

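Limits: 2 libraries a group, a control that stands apart and, for Bcl2a1b, near-identical copies. With 1 library left out, an adjusted p rests on the spread of the remaining pair alone, and the lone library is assumed to vary like it. Of 118 recomputed log2 fold changes of single members, 99 kept their direction and their side of the threshold, 10 passed it and 9 turned round. The causes were not tested. In most settings 0 genes of the whole table passed, so keeping the side of the threshold was nearly fixed in advance. The 99 include differences that nearly vanished, such as Mcl1 at -0.0027 under quantile normalization.

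The 0 genes called became 552 with the replicate number as a block and 6 to 7420 with 1 library left out, and the 0 members called became 1 (Bcl2, adjusted p = 0.037) with the replicate block and 0 to 6 with 1 library left out, the 6 without control replicate 1 and 3 without control replicate 2. Nothing in the labels says that a number marks a shared mouse or day. Deviations of same-numbered libraries were not correlated (r = -0.0233 over 12166 genes). With 2 libraries a group and a control that stands apart, this value cannot tell whether the replicates were paired. The block changed no other member's call, and the counts of members outside the controls' range were not recomputed with it. The pro-death median of -0.121 was -0.235 over the 4 members with a mean FPKM of at least 5, -0.0167 under quantile normalization and 0.0296 in voom, which shifts the median of all genes to 0.15. The pro-survival median of -0.718 ran from -0.768 to -0.216 with 1 library left out. Members above both controls, 0 as reported, were 1 under quantile normalization, in voom and with the length trend removed, and 0 to 2 with 1 library left out. Members below both, 6 as reported, were 3 under quantile normalization and in voom. Members outside the controls' range numbered 6 to 10 with 1 library left out, and lower ratios 12 to 20. Leaving out a library cannot lower either count, so these settings were no check of them. The Bax difference turned to 0.09 under quantile normalization and ran from -1.12 to 0.11 with 1 library left out, that of Bbc3 ran from -0.11 to 0.45, and that of Bcl2l11 from -0.05 to 0.15. Bcl2l11 turned to -0.01 under quantile normalization and -0.14 without the length trend, Bid to 0.0024 in voom, and Pmaip1 to 0.06 in voom and 0.11 without the length trend.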

Other observations

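Within the pro-survival group, Mcl1 supplied 60.1% and 60.4% of the summed FPKM in DMF and 61.9% and 52.5% in control libraries. Bcl2 supplied 4.71% and 4.81% in DMF and 10.3% and 5.67% in control libraries, below both controls. Within the pro-death group, Bbc3 supplied 30.3% and 30.3% in DMF and 24.6% and 19.5% in control libraries, above both controls. Bax supplied 50.2% and 50.6% in DMF and 51.9% and 65.2% in control libraries, below both controls. Shares within a group depend on each other, so the high Bax value of control replicate 2 lowers the Bbc3 share there. Together the 10 members took 0.167% and 0.169% of all reads in DMF and 0.187% and 0.216% in control libraries, below both controls.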
